A study of Mus musculus with 32 samples.

Results

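The p53 targets and cell stress markers examined here were 10 mouse genes, Mdm2, Cdkn1a, Ccng1, Zmat3, Eda2r, Bax, Phlda3, Trp53inp1, Sesn2 and Gdf15, matched by gene name in tables of 24952 genes. RNA was measured in tibialis anterior (TA) muscle of male wild-type C57BL/6JRj mice that were caged singly and fed an AIN93M diet, at 10 months (10m) and at 30 months (30m) of age. Regions around neuromuscular junctions (NMJ), marked by fluorescent α-bungarotoxin, and extra-synaptic regions of muscle fibres (xNMJ) were cut out by laser capture and pooled, and each library was made from polyadenylated RNA with the SMART-Seq v4 kit. Each of the 4 groups, the NMJ and xNMJ regions of either age, had 8 libraries, and library totals ran from 4026648 to 16516788 counts. At 10 months the median total was 6062117 in xNMJ and 9605869 in NMJ, and at 30 months it was 6790011 and 9825357. The labels do not name the animal behind a library, so the p values measure the spread between libraries, which may in part be technical.

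p53 is a transcription factor that is stabilized by DNA damage and other stress and then switches on genes that halt the cell cycle, start apoptosis, alter metabolism or feed back on p53 itself. Cdkn1a, Mdm2, Ccng1, Zmat3, Eda2r, Bax and Phlda3 are direct targets in many tissues, while Sesn2 and Gdf15 are also switched on by ATF4, the transcription factor of the integrated stress response. In skeletal muscle, Cdkn1a, Eda2r and Gdf15 are known as genes that respond to denervation, aging or mitochondrial stress.

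The synaptic and fibre labels were checked first. Summed over 12 synaptic genes, the median level at 10 months was 633 TPM (read share scaled for transcript length and library total) in xNMJ and 2010 TPM in NMJ, and at 30 months 717 and 2350 TPM. Of these genes 9 were higher in NMJ at both ages and 1, Lrp4, which made up most of the xNMJ sums, was lower. Over the other 11, a choice made after the values were seen, the medians were 38.1 TPM in xNMJ and 1850 TPM in NMJ at 10 months and 41.7 and 2000 TPM at 30 months. One library labelled 30m xNMJ, replicate 5, stood apart from its group. Its sum over all 12 was the lowest of the group (360 TPM), but over the 11 without Lrp4 it was the highest (281 TPM, with the next library at 68.1 TPM). It held 94 CPM (counts scaled to library size) of Chrne, the adult subunit of the synaptic acetylcholine receptor, against at most 0.24 CPM in the other 7 libraries of the group. It also held 443 CPM of Prkar1a, a kinase subunit abundant at the synapse, where the next library had 53.1 CPM. Values of the 8 tested genes without this library are given below where they changed sign or moved most, and without it the genes called went from 1295 to 1475 between regions at 30 months and from 6 to 9 with age in xNMJ. Of the lists checked, the 10 genes of the contractile fibre had the highest sums in all groups, with medians at 10 months of 78900 TPM in xNMJ and 72700 TPM in NMJ, and at 30 months of 79500 and 74700 TPM.

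To show the sequence by which p53 targets are recognized, the 300 bases from 250 before to 50 after the start site were read from RefSeq promoters of GRCm38.p6, in which 8 of the 10 genes had an entry. The p53 decamer, the 10-base unit of the p53 response element, was searched by its consensus, which reads the same on both strands, and was present in 4 of the 10 entries of these genes (40%), those of Cdkn1a, Mdm2, Ccng1 and Bax. Over all 32851 promoters of this length, 8.36% held it. The core of an ATF4 element, TGATGCAA, searched on both strands, was in none of the entries of these genes and in 0.895% of all promoters. Each match is shown with 10 bases before it and 20 after it, 5′ to 3′ on the gene's strand, with the decamer in capitals, in the order of Cdkn1a at positions -73 and -51 (chr17:29090896-29090935 and chr17:29090918-29090957, plus strand, whose windows overlap), Mdm2 at -186 (chr10:117710915-117710954, minus strand), Ccng1 at -185 (chr11:40755442-40755481, minus strand) and Bax at -201 (chr7:45467070-45467109, minus strand), counted from the start site to the first base of the match.
Cdkn1a first match: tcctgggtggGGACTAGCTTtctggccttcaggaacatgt
Cdkn1a second match: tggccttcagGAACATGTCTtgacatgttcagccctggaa
Mdm2: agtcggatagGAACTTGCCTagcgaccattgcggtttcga
Ccng1: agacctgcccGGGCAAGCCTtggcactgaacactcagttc
Bax: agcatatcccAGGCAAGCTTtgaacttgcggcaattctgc
A match describes letters in this window and is not a measured binding site.

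The 10 genes differed widely in level. On the TPM scale, which corrects for transcript length, Ccng1 was the most abundant in all groups, with means at 10 months of 145 ± 27.0 TPM in xNMJ and 129 ± 25.3 TPM in NMJ, and at 30 months of 162 ± 28.2 and 129.5 ± 24.8 TPM (SD, n = 8 each). Phlda3 followed with means of 22.1 to 34.9 TPM. Mdm2 lay between 10.6 and 23.2 TPM, Cdkn1a between 8.28 and 26.3 TPM and Bax between 5.61 and 13.9 TPM, and the libraries of these 3 genes overlapped. Eda2r means ran from 1.28 to 10.0 TPM, Zmat3 from 1.54 to 3.23 TPM and Trp53inp1 from 0.936 to 1.85 TPM. Sesn2 stayed at 0.283 TPM or less, and Gdf15 was listed at 0 in all groups but 30m NMJ, where its mean was 0.15 TPM. With at least 1 CPM in at least 8 libraries as the filter, 13990 genes were tested, among them 8 of the 10, all but Sesn2 and Gdf15. Levels and differences below are in CPM scaled by TMM factors, which set the typical gene equal between libraries, unless TPM is named.

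**Figure D1:**
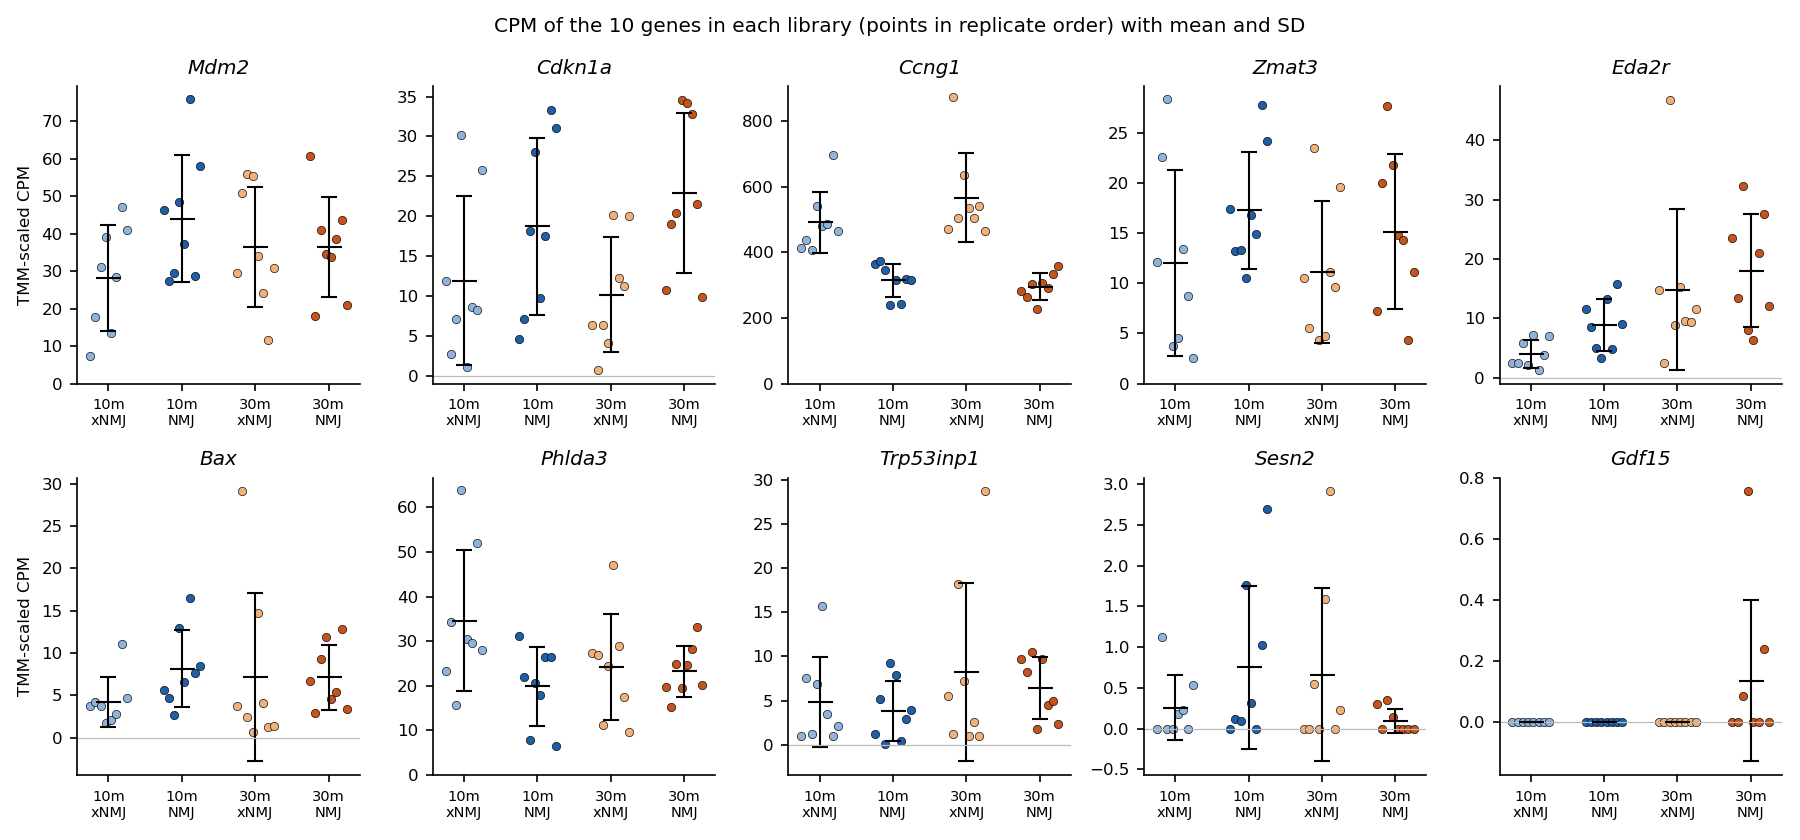
TMM-scaled CPM of the 10 genes (one panel each, linear axes that differ between panels) in the 8 libraries of each group; points are libraries in replicate order, and black bars give the mean and SD. Ccng1 is the gene whose NMJ and xNMJ libraries do not overlap at either age, Eda2r lies higher in most 30m libraries, and Gdf15 has counts in only 3 libraries, all 30m NMJ.

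The first question was whether these genes differ between the captured NMJ and xNMJ regions, which can hold other cells besides fibres. Ccng1 was lower in NMJ than in xNMJ at both ages, 1.56-fold at 10 months and 1.92-fold at 30 months, relative to the typical gene. It was the single gene of the 8 tested that passed the threshold at 10 months, when 11.5% of all genes tested did so (6.5% higher and 5.05% lower), and again at 30 months, when 9.26% did so (5% higher and 4.25% lower). At an unadjusted p under 0.05 there were 3 of the 8 at 10 months, Ccng1, Phlda3 and Eda2r, against 22.8% of all genes, and 2 at 30 months, Ccng1 and Cdkn1a, against 20.7%. Cdkn1a, Eda2r, Mdm2, Zmat3 and Bax had higher means in NMJ at 10 months and Phlda3 and Trp53inp1 lower ones, none of them past the threshold of an adjusted p of 0.05. The median log2 difference of the 8 genes was 0.58 at 10 months, with 5 of the 8 above 0, against 0.00 for all genes tested, and -0.01 at 30 months, with 3 of the 8 above 0, against -0.01 for all genes.

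Ccng1 (ENSMUSG00000020326, chr11:40748552-40755311, minus strand, GRCm38) encodes cyclin G1, which brings the phosphatase PP2A to Mdm2. At 10 months it ran from 408 to 698 CPM with a median of 472 in xNMJ, and from 241 to 375 CPM with a median of 317 in NMJ. At 30 months the xNMJ libraries lay between 466 and 875 CPM (median 521) and the NMJ libraries between 227 and 359 CPM (median 298). Every NMJ library of an age was below every xNMJ library of that age, which at 10 months held for 1.19% and at 30 months for 0.5% of all genes tested, counting those lower in NMJ. None of the other 7 tested genes was without overlap, whereas 2.22% and 1.96% of all genes had every NMJ library above every xNMJ library. The log2 fold change was -0.64 ± 0.15 (SE) at 10 months (adjusted p = 0.00254) and -0.94 ± 0.15 at 30 months (adjusted p = 3.65e-05) in edgeR's quasi-likelihood test with Benjamini-Hochberg adjustment. The difference between the ages in this region effect was -0.30 ± 0.21 (adjusted p = 0.9999 in edgeR), so no change of it with age was shown. Without 30m xNMJ replicate 5 the values were -0.64 (adjusted p = 0.00226) and -0.95 (adjusted p = 3.86e-05).

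The fall of Ccng1 was a fall relative to the typical gene. TMM factors were between 0.686 and 1.02 in xNMJ libraries and between 1.12 and 1.35 in NMJ libraries. With library totals in their place, the median log2 difference of all genes moved to 0.56 at 10 months and 0.61 at 30 months, and the share of higher genes among those called went, at 10 months from 56.3% to 92.7%, and at the older age from 54.1% to 97.3%. Ccng1 then stood at -0.09 (adjusted p = 0.701) and -0.30 (adjusted p = 0.148), which is 0.65 and 0.91 below the median gene, close to its distance with TMM factors. On log2(TPM + 1) it was at -0.18 (adjusted p = 0.425) and -0.32 (adjusted p = 0.106), and on the same scale after TMM scaling at -0.65 (adjusted p = 0.00253) and -0.94 (adjusted p = 2.5e-05).

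Genes of the contractile fibre lay near Ccng1 in size and direction. Of 10 fibre genes, 5 were lower and 0 higher in NMJ at each age, and their median log2 difference was -0.81 at the younger and -0.79 at the older age. Tnnt3, the fast troponin T that was the most abundant of them, had -0.92 and -1.02, and Acta1, the main muscle actin, had -0.75 and -0.81. Among markers of non-fibre cells, those of Schwann cells, macrophages, fibroblasts and mast cells were in good part higher in NMJ, and those of endothelial cells, pericytes, T and B cells and red cells had 0 higher. Among 7 Schwann cell genes, 7 were higher at both ages, with summed medians of 5.83 TPM in xNMJ against 170 TPM in NMJ at 10 months and 4.15 against 143 TPM at 30 months. Macrophage genes summed to 4.04 against 80.5 TPM at 10 months and 7.18 against 77.9 TPM at 30 months, with 5 and 4 of 8 higher, Cd68 and C1qb the most abundant in NMJ and Adgre1 at 0 in 30m xNMJ. Fibroblast genes, led by Dcn, summed to 132 against 888 TPM and 133 against 834 TPM, with 4 and 3 of 6 higher. The part of these cells in the differences of the p53 genes was not tested, and in captured regions fewer cells of a type and less RNA per cell cannot be told apart.

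Of the other lists, mast cell genes (4 of 5 higher at both ages) summed to 0.166 TPM in xNMJ against 36.3 TPM in NMJ at 10 months and 0.415 against 61.5 TPM at 30 months, with Cma1 the most abundant in NMJ, Cpa3 at 0 in both xNMJ groups and Cma1 and Tpsb2 at 0 in 30m xNMJ. Muscle stem cell genes summed to 14, 37.6, 9.04 and 33.4 TPM in the same order (1 of 4 tested higher at both ages, Sdc4), endothelial genes, led by Cdh5, to 24.1, 20.8, 26 and 15.8 TPM (0 of 4 past the threshold at 10 months and 1 lower at 30 months) and pericyte genes, led by Rgs5, to 38.2, 48, 41.7 and 53.6 TPM (0 of 4 and 1 lower). Genes of T and B cells summed to 0.455, 1.88, 2.64 and 2.26 TPM, with 1 of 4 tested and 0 past the threshold, and genes of red cells, led by Hba-a2 or Hbb-bs, to 3140, 3840, 7830 and 5910 TPM, with 0 of 4 past it.

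Cdkn1a (ENSMUSG00000023067, chr17:29090976-29100727, plus strand) encodes p21, the inhibitor of cyclin-dependent kinases through which p53 arrests the cell cycle. At 30 months it ran from 0.711 to 20.2 CPM with a median of 8.84 in xNMJ, and from 9.85 to 34.6 CPM with a median of 21.0 in NMJ. All 8 of the 30m NMJ libraries were above the 30m xNMJ median and 5 were above its highest library, so the groups overlapped in part. The mean was 2.25-fold higher in NMJ, with a log2 difference of 1.17 ± 0.54 (adjusted p = 0.198 in edgeR), which did not pass the threshold. At 10 months the libraries ran from 1.10 to 30.2 CPM (median 8.38) in xNMJ and from 4.65 to 33.3 CPM (median 17.9) in NMJ, and the log2 difference was 0.65 ± 0.53 (adjusted p = 0.516 in edgeR). The highest 30m xNMJ value was that of replicate 5, the library with synaptic transcripts, and without it the log2 difference at 30 months was 1.40 (adjusted p = 0.117 in edgeR). With library totals the 30-month difference of Cdkn1a was 1.71 (adjusted p = 0.0287 in edgeR) while that of the median gene was 0.61.

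Mdm2 (ENSMUSG00000020184, chr10:117688875-117710758, minus strand) encodes the ubiquitin ligase that marks p53 for degradation. At 10 months it ran from 7.47 to 47.2 CPM with a median of 29.8 in xNMJ and from 27.5 to 75.9 CPM with a median of 41.7 in NMJ. Only 3 of the 8 NMJ libraries were above the highest xNMJ library, and the log2 difference of 0.64 ± 0.33 did not pass the threshold (adjusted p = 0.244 in edgeR). At 30 months the xNMJ libraries ran from 11.5 to 56.0 CPM (median 32.4) and the NMJ libraries from 18.1 to 60.6 CPM (median 36.5), and the difference was -0.01 ± 0.33. The 10-month difference of Mdm2 passed the threshold with library totals (1.19, adjusted p = 0.00896), where the median gene stood at 0.56, and on log2(TPM + 1) (1.14, adjusted p = 0.00705), where it stood at 0.37.

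Bax (ENSMUSG00000003873, chr7:45461697-45466898, minus strand), the pore-forming protein that opens the outer membrane of mitochondria in apoptosis, was measured at a low level. In 10m xNMJ it ran from 1.73 to 11.1 CPM with a median of 3.76, and in 10m NMJ from 2.61 to 16.5 CPM with a median of 7.08. Of the NMJ libraries, 7 of 8 were above the xNMJ median and 2 above its highest library, and the log2 difference was 0.93 ± 0.58 (adjusted p = 0.367 in edgeR). At 30 months a single xNMJ library, replicate 2, held 29.1 CPM and the next 14.7, with a median of 3.04, and the NMJ libraries ran from 2.85 to 12.9 CPM with a median of 6.03. The difference of -0.02 ± 0.58 at 30 months became 0.80 without replicate 2 of 30m xNMJ and 0.22 without replicate 5.

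Phlda3 (ENSMUSG00000041801, chr1:135766119-135769136, plus strand) encodes a membrane-binding protein that restrains the kinase Akt. In 10m xNMJ it ran from 15.6 to 63.8 CPM with a median of 30.0, and in 10m NMJ from 6.61 to 31.1 CPM with a median of 21.3. A single 10m NMJ library was above the xNMJ median and 2 were below its lowest library, and the log2 difference was -0.80 ± 0.32 (adjusted p = 0.112 in edgeR). At 30 months the difference was -0.06 ± 0.32 (means of 24.1 ± 11.9 CPM in xNMJ and 23.2 ± 5.70 CPM in NMJ, SD, 8 libraries each) and was 0.16 without 30m xNMJ replicate 5. The 10-month difference of Phlda3 passed the threshold with the insert size of the libraries as a covariate (-1.20, adjusted p = 0.0111 in edgeR). At 10 months the insert size went with the region, at 79 to 108 in xNMJ and 109 to 131 in NMJ libraries other than replicate 8, which was at 52 and held the lowest Phlda3 level of its group. The covariate of this fit is thus confounded with the comparison, and why Phlda3 gained the call was not tested. Phlda3 also passed in limma-voom with libraries of the same number as a block (-1.01, adjusted p = 0.0213). With that block in edgeR it did not pass (-0.85, adjusted p = 0.0691).

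Zmat3 (ENSMUSG00000027663, chr3:32334792-32366014, minus strand), a zinc finger protein that binds RNA, and Trp53inp1 (ENSMUSG00000028211, chr4:11156431-11174379, plus strand), a stress protein that acts with p53 and in autophagy, varied as much within as between groups. Zmat3 lay between 2.49 and 28.4 CPM over the 32 libraries, with log2 differences of 0.53 ± 0.44 at 10 months and 0.45 ± 0.44 at 30 months. Trp53inp1 lay between 0.0967 and 28.8 CPM, with differences of -0.33 ± 0.74 and -0.35 ± 0.73, which turned to 0.22 without 10m xNMJ replicate 5 and to 0.29 without 30m xNMJ replicate 8. Neither gene passed the threshold (lowest adjusted p = 0.518 in edgeR).

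**Figure D2:**
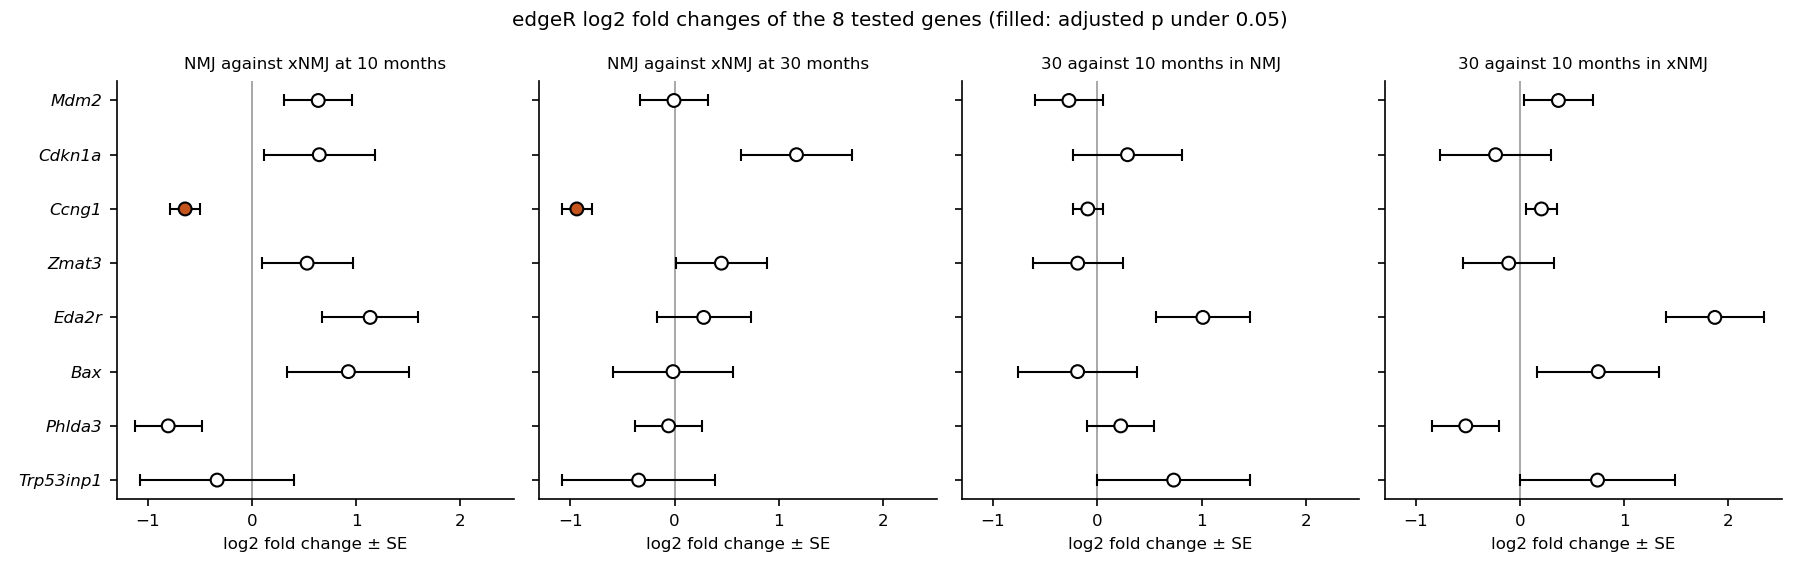
log2 fold changes (x axis) of the 8 tested genes in the comparison of regions at each age and of ages in each region, as fitted by edgeR with TMM factors; bars give the SE and filled points have an adjusted p under 0.05. Ccng1 in the comparisons of regions holds the only filled points, and Eda2r lies farthest to the right in the comparisons of ages.

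**Figure D3:**
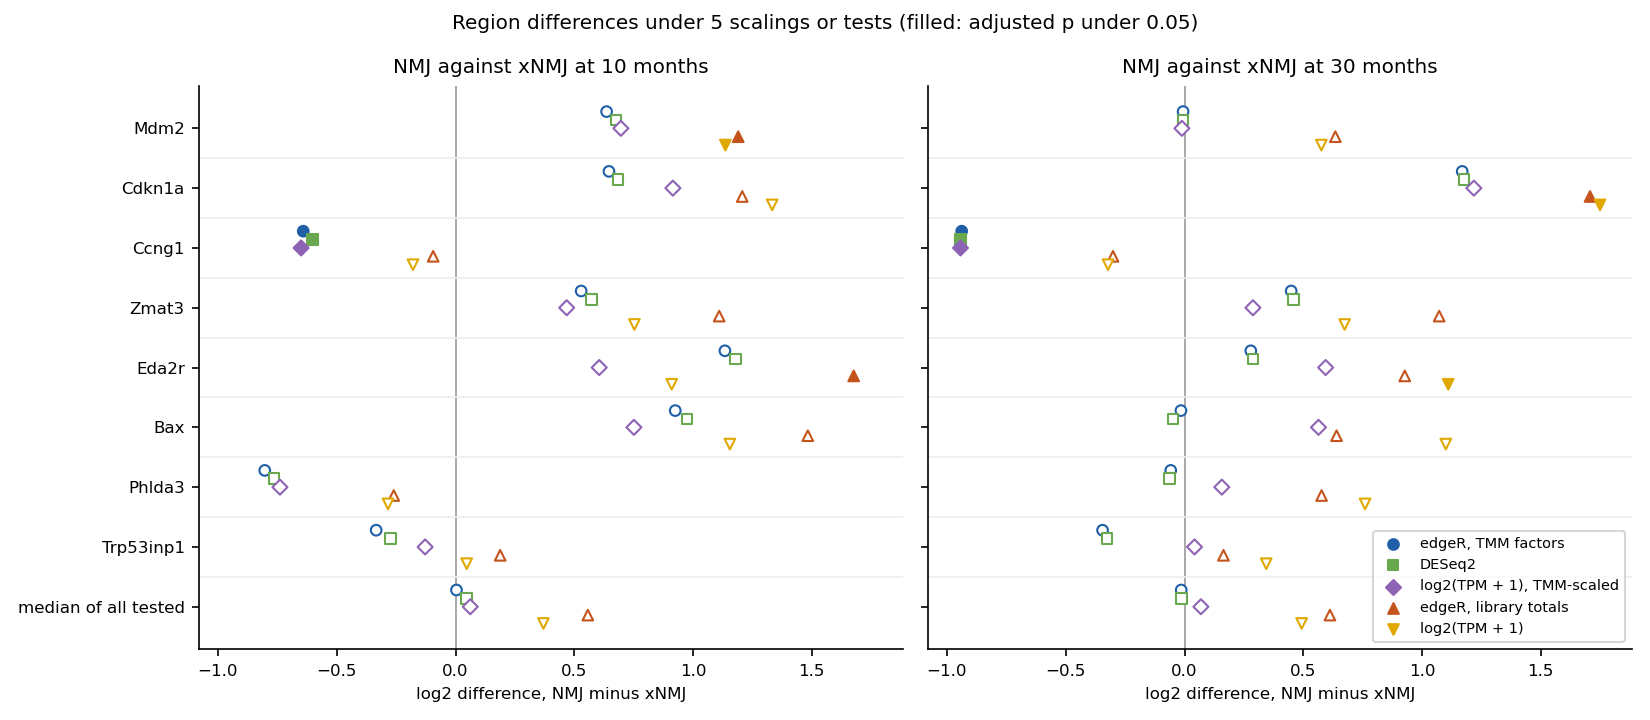
log2 difference between NMJ and xNMJ (x axis) of the 8 tested genes and of the median gene under 5 scalings or tests at each age; filled symbols have an adjusted p under 0.05. With library totals and on unscaled TPM the median gene lies to the right of 0 and the 8 genes lie to the right of their edgeR values with TMM factors (Eda2r at 10 months on log2(TPM + 1) is an exception); Ccng1 has no call there, Mdm2 has one at 10 months, Cdkn1a at 30 months and Eda2r at 10 months with library totals and at 30 months on unscaled TPM.

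The second question was whether the genes differ with age in either region. Eda2r was higher at 30 months than at 10 months, 3.66-fold in xNMJ and 2.02-fold in NMJ by its means, the largest difference with age among the 8 genes in each region in edgeR, but it did not pass the threshold. None of the 8 genes passed it, and neither did any of the 13990 genes tested in NMJ (0%, with 372 at an unadjusted p under 0.05 in edgeR and 1 called by DESeq2), while 6 genes, or 0.0429%, passed it in xNMJ (0.0357% higher and 0.00715% lower). That count was 84 with DESeq2, 0 in 5 of the other settings, and between 0 and 9 with 1 library left out. At an unadjusted p under 0.05, 1 of the 8 genes, Eda2r, was found in each region, against 2.66% of all genes in NMJ and 9.45% in xNMJ, and Eda2r was also the 1 gene for the mean of the regions (7.43% of all genes). For the interaction of age and region 0 of the 8 reached it (5.06% of all genes). The median log2 difference of the 8 genes was 0.07 in NMJ, against 0.02 for all genes, and 0.29 in xNMJ, against 0.04 for all genes.

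Eda2r (ENSMUSG00000034457, chrX:97333840-97377216, minus strand) encodes a receptor of the tumour necrosis factor family for ectodysplasin A2. In xNMJ it ran from 1.39 to 7.14 CPM with a median of 3.15 at 10 months, and from 2.49 to 46.8 CPM with a median of 10.6 at 30 months. Of the 30m xNMJ libraries, 7 of 8 were above the highest 10m xNMJ library, and replicate 2 was the exception. In NMJ it ran from 3.39 to 15.8 CPM with a median of 8.76 at 10 months, and from 6.39 to 32.3 CPM with a median of 17.2 at 30 months. Of the 30m NMJ libraries, 4 of 8 were above the highest 10m NMJ library. Replicate 3 was the highest 30-month library in both regions, with the next 30m xNMJ library at 15.2 CPM.

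In edgeR the log2 difference of Eda2r with age was 1.87 ± 0.47 in xNMJ (adjusted p = 0.149) and 1.01 ± 0.45 in NMJ (adjusted p = 0.9998). Averaged over both regions it was 1.44 ± 0.33, or 2.72-fold (adjusted p = 0.131), which ranked the gene at place 10 of the 13990 genes tested by p. DESeq2 put it past the threshold in xNMJ (1.87, adjusted p = 0.0123) and for the mean of the regions (1.43, adjusted p = 0.00622), where edgeR called 0 genes (1039 at an unadjusted p under 0.05) and DESeq2 48. Both fits for the mean took NMJ and xNMJ libraries as independent. If these share animals, the SE and p values of the mean may be too small. Without 30m xNMJ replicate 3 the difference in xNMJ was 1.34, and over all libraries left out in turn it lay between 1.34 and 2.03 (adjusted p = 0.0641 to 0.308 in edgeR). Leaving out 30m xNMJ replicate 5, the library with synaptic transcripts, gave 1.86 in xNMJ (adjusted p = 0.151) and 1.44 for the mean (adjusted p = 0.133). Eda2r did not pass in limma-voom with libraries of the same number as a block. It had 1.70 in xNMJ (adjusted p = 0.945) and 1.30 for the mean (adjusted p = 0.685) in that fit.

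Between regions, Eda2r was 2.20-fold higher in NMJ at 10 months by its means, with all 8 NMJ libraries above the xNMJ median and 5 above its highest library (log2 difference 1.13 ± 0.46, adjusted p = 0.117 in edgeR). At 30 months the difference was 0.28 ± 0.45 (adjusted p = 0.793) and 0 NMJ libraries were above the highest xNMJ library. Without 30m xNMJ replicate 3 that difference was 0.81. Eda2r passed the threshold at 10 months with library totals (1.68, adjusted p = 0.0092) and in limma on log2(TPM + 0.1) (1.32, adjusted p = 0.0292). The median gene stood at 0.56 and 0.57 there. On log2(TPM + 1) Eda2r did not pass at 10 months (0.91, adjusted p = 0.055 in limma). It passed at 30 months on log2(TPM + 1) (1.11, adjusted p = 0.0167) and log2(TPM + 0.1) (1.32, adjusted p = 0.0248). At 30 months the median gene was at 0.49 and 0.73 on these scales. The effect of age in NMJ minus that in xNMJ was -0.86 ± 0.64 (adjusted p = 0.9999 in edgeR), and -0.325 without 30m xNMJ replicate 3. A difference between the regions in the response of Eda2r to age was thus not shown.

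The other genes differed with age by less than the spread between libraries allowed to call. Cdkn1a had log2 differences of 0.29 ± 0.53 in NMJ and -0.23 ± 0.53 in xNMJ. Mdm2 had -0.27 ± 0.32 and 0.37 ± 0.33, and Ccng1 had -0.09 ± 0.15 and 0.21 ± 0.15, with 7 of the 8 30m xNMJ libraries above the 10m xNMJ median. Bax had -0.19 ± 0.57 and 0.75 ± 0.59, the latter resting on 30m xNMJ replicate 2, without which it was -0.07. Phlda3 had 0.23 ± 0.32 and -0.52 ± 0.32, Zmat3 -0.19 ± 0.43 and -0.11 ± 0.44, and Trp53inp1 0.73 ± 0.73 and 0.74 ± 0.74, the latter 0.11 without 30m xNMJ replicate 8 and 1.30 without 10m xNMJ replicate 5. Without 30m xNMJ replicate 5, the library with synaptic transcripts, the differences in xNMJ were -0.46 for Cdkn1a, -0.73 for Phlda3, 0.51 for Bax and 0.008 for Zmat3. Markers of red cells had higher summed medians at 30 months in both regions and reached 29600 TPM in 30m xNMJ replicate 2, and none of them passed the threshold with age. Their part in the age differences was not tested.

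Sesn2 and Gdf15 had few or no counts in most libraries. Sesn2 (ENSMUSG00000028893, chr4:132492032-132510501, minus strand) encodes sestrin 2, which restrains the growth kinase complex mTORC1 when amino acids are scarce. At 10 months it had 0 counts in 4 of 8 xNMJ and 2 of 8 NMJ libraries, with summed counts of 10 and 105, and at 30 months in 4 and 5 of 8, with summed counts of 32 and 9. The highest values were 2.91 CPM in a 30m xNMJ library with 10 counts and 2.70 CPM in a 10m NMJ library with 53 counts, and the 30m NMJ libraries had a mean of 0.0978 CPM. Gdf15 (ENSMUSG00000038508, chr8:70629393-70632456, minus strand) encodes a hormone of the TGF-β superfamily that cells secrete under stress. It had no counts in any library of the other 3 groups and 1, 11 and 3 counts in 30m NMJ replicates 3, 4 and 7, or 0.0863, 0.759 and 0.24 CPM. A count of 0 in a library allows up to 3 counts, or 0.266 to 0.933 CPM in xNMJ and 0.153 to 0.341 CPM in NMJ libraries, limits that cover counting error only, since the reads carry no molecular identifiers. Several Sesn2 libraries were above these limits, but the gene was below the filter and, like Gdf15, was not tested.

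The p53 network beyond the 10 genes was then counted by region, and each count of called genes stands beside the share of all genes called, 6.5% higher and 5.05% lower at 10 months and 5% higher and 4.25% lower at 30 months. Trp53, which encodes p53, had means of 4.66 CPM in xNMJ and 8.40 CPM in NMJ at 10 months and of 4.82 and 8.84 CPM at 30 months, with log2 differences between regions of 0.86 ± 0.42 at 10 months (adjusted p = 0.221 in edgeR) and 0.88 ± 0.42 at 30 months (adjusted p = 0.228), neither past the threshold. It differed with age by 0.07 ± 0.41 in NMJ and 0.05 ± 0.43 in xNMJ. With library totals the differences of Trp53 between regions were 1.44 (adjusted p = 0.0169) and 1.54 (adjusted p = 0.0109), while the median gene stood at 0.56 at 10 months and 0.61 at 30 months. Mdm4, the partner of Mdm2 that masks p53, differed between regions by 0.30 and 0.13. Among 17 tested genes of p53 and its regulators, 0 passed at 10 months and 2 were higher in NMJ at 30 months, the kinase Hipk2 (1.15, adjusted p = 0.0198) and the acetyltransferase Ep300 (1.07, adjusted p = 0.0294). Both lost the call on TMM-scaled TPM (0.89, adjusted p = 0.0756, and 0.93, adjusted p = 0.14).

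Of 28 other p53 targets tested, 1 was higher in NMJ at each age and 0 were lower. That gene was Ccnd1, cyclin D1, a driver of the cell cycle, with means at 10 months of 3.71 CPM in xNMJ and 25.5 CPM in NMJ (log2 fold change 2.77, adjusted p = 0.00133 in edgeR) and at 30 months of 3.45 and 23.5 CPM (2.75, adjusted p = 0.00182). The median log2 difference of these targets was 0.04 at 10 months and 0.17 at 30 months, against 0.00 and -0.01 for all genes. Among 11 tested genes of the cell cycle, which include Ccnd1, Cdk6 was higher in NMJ at both ages (1.10, adjusted p = 0.0147, and 1.22, adjusted p = 0.00784), and Ccnd2 was lower at 30 months (-1.27, adjusted p = 0.00595). The call of Ccnd2 was lost with library totals (-0.59, adjusted p = 0.155), where the median gene stood at 0.61. Of 10 tested genes of other inhibitors of cyclin-dependent kinases and of senescence, Glb1, the lysosomal galactosidase used as a senescence stain, was higher at 10 months (2.53, adjusted p = 0.0418) and 0 genes passed at 30 months.

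Of 14 tested genes of the BCL2 family, to which Bax belongs, 1 was higher and 2 were lower in NMJ at 10 months and 1 was higher and 1 lower at 30 months. Bcl2l1, whose main product protects against apoptosis, was higher in NMJ at both ages, with means of 9.37 CPM in xNMJ and 36.8 CPM in NMJ at 10 months and of 9.96 and 44.3 CPM at 30 months (log2 fold changes of 1.97, adjusted p = 0.00168, and 2.14, adjusted p = 0.000883, in edgeR). Bak1, the closest partner of Bax in opening mitochondria, was lower at 10 months (-1.58, adjusted p = 0.00389), and Bnip3, a mitophagy receptor, was lower at both ages (-1.07, adjusted p = 0.000117, and -0.80, adjusted p = 0.00378). With library totals Bak1 was at -1.04 (adjusted p = 0.054) and Bnip3 at -0.50 (adjusted p = 0.0478) and -0.18 (adjusted p = 0.509). The median gene then stood at 0.56 at 10 months and 0.61 at 30 months.

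Of 15 tested relatives of the 10 genes by family, Phlda1, a relative of Phlda3, was higher in NMJ at both ages (2.57, adjusted p = 0.000771, and 2.63, adjusted p = 0.000868, in edgeR), where Phlda3 itself was not. Bak1 and Zmat2, a relative of Zmat3, were lower at 10 months (Zmat2 -0.73, adjusted p = 0.00427). Mstn, myostatin, a relative of Gdf15 that limits muscle growth, was lower at 30 months (-1.79, adjusted p = 0.0334). With library totals Zmat2 was at -0.15 (adjusted p = 0.548) and Mstn at -1.11 (adjusted p = 0.137), while the median gene stood at 0.56 at 10 months and 0.61 at 30 months. Of 11 tested genes of EDA2R signalling and 14 of the sestrin and GATOR pathway, 0 passed at either age.

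The ATF4 list, which held Atf4, its targets and the kinases upstream of it but neither Sesn2 nor Gdf15, had 3 of 26 tested genes higher in NMJ at 10 months and 0 at 30 months. Of all genes, 6.5% were higher in NMJ at 10 months. The 3 were Psat1 in serine synthesis (5.20, adjusted p = 0.00299 in edgeR), Asns, which makes asparagine, (3.86, adjusted p = 0.0418) and Pck2, the mitochondrial enzyme that makes phosphoenolpyruvate, (2.72, adjusted p = 0.0327). Psat1 means at 10 months were 0.16 CPM in xNMJ and 5.97 CPM in NMJ, and at 30 months 0.418 and 1.28 CPM. In 10m xNMJ, Psat1 had 6 counts in all, with 5 of 8 libraries at 0, and Asns 9 counts, with 6 of 8 at 0. Their fitted differences rest on a group near the limit of 3 counts a library and their size is uncertain. Whether these effects differed between the ages was not shown, as no gene passed the interaction test of age and region (0 in edgeR, 708 at an unadjusted p under 0.05 and 9 called by DESeq2). Atf4 itself was at 134 CPM in xNMJ and 129.7 CPM in NMJ at 10 months and at 98.9 and 125 CPM at 30 months, with differences between regions of -0.05 and 0.34 and with age of -0.06 in NMJ and -0.44 in xNMJ (adjusted p = 0.512).

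Genes known to respond to denervation, a list that also holds genes expressed at the synapse itself, had 6 of 12 tested genes higher and 2 lower in NMJ at 10 months and 3 higher and 0 lower at 30 months. The largest at 10 months were Gdf5 (1 count in all of 10m xNMJ and 583 in 10m NMJ), Rrad (17 and 3195 counts) and Chrna1 (4.47), a subunit of the acetylcholine receptor, which was also higher at 30 months (3.94), as were Ncam1 (3.61) and Myog (3.33). Dach2 (-2.12) and Myh8 (-0.77) were lower at 10 months. With age, 0 genes of these p53, stress and denervation lists passed the threshold in either region in edgeR. In xNMJ the denervation list had a median log2 difference with age of 0.71, with 10 of 12 above 0, against 0.04 for all genes. Other lists had medians of that size or more in the same comparison. The synaptic genes had 0.83, with 10 of 12 above 0 and 1 called, Etv5. The highest 30m xNMJ library of Etv5 was replicate 5 at 109 CPM, with the next at 14.8 CPM. Macrophage markers had a median of 0.99 and red cell markers of 1.51. Without 30m xNMJ replicate 5, the library with synaptic transcripts, the median of the denervation list was 0.62, with 9 of 12 above 0. A pair of its genes, chosen after their values were seen, ranked near Eda2r by p without passing, Rrad (4.92, adjusted p = 0.136, and 5.10, adjusted p = 0.104, without that library) and Runx1 (2.63, adjusted p = 0.195, and 2.73, adjusted p = 0.151). DESeq2 put Runx1 past the threshold there (adjusted p = 0.014).

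**Figure D4:**
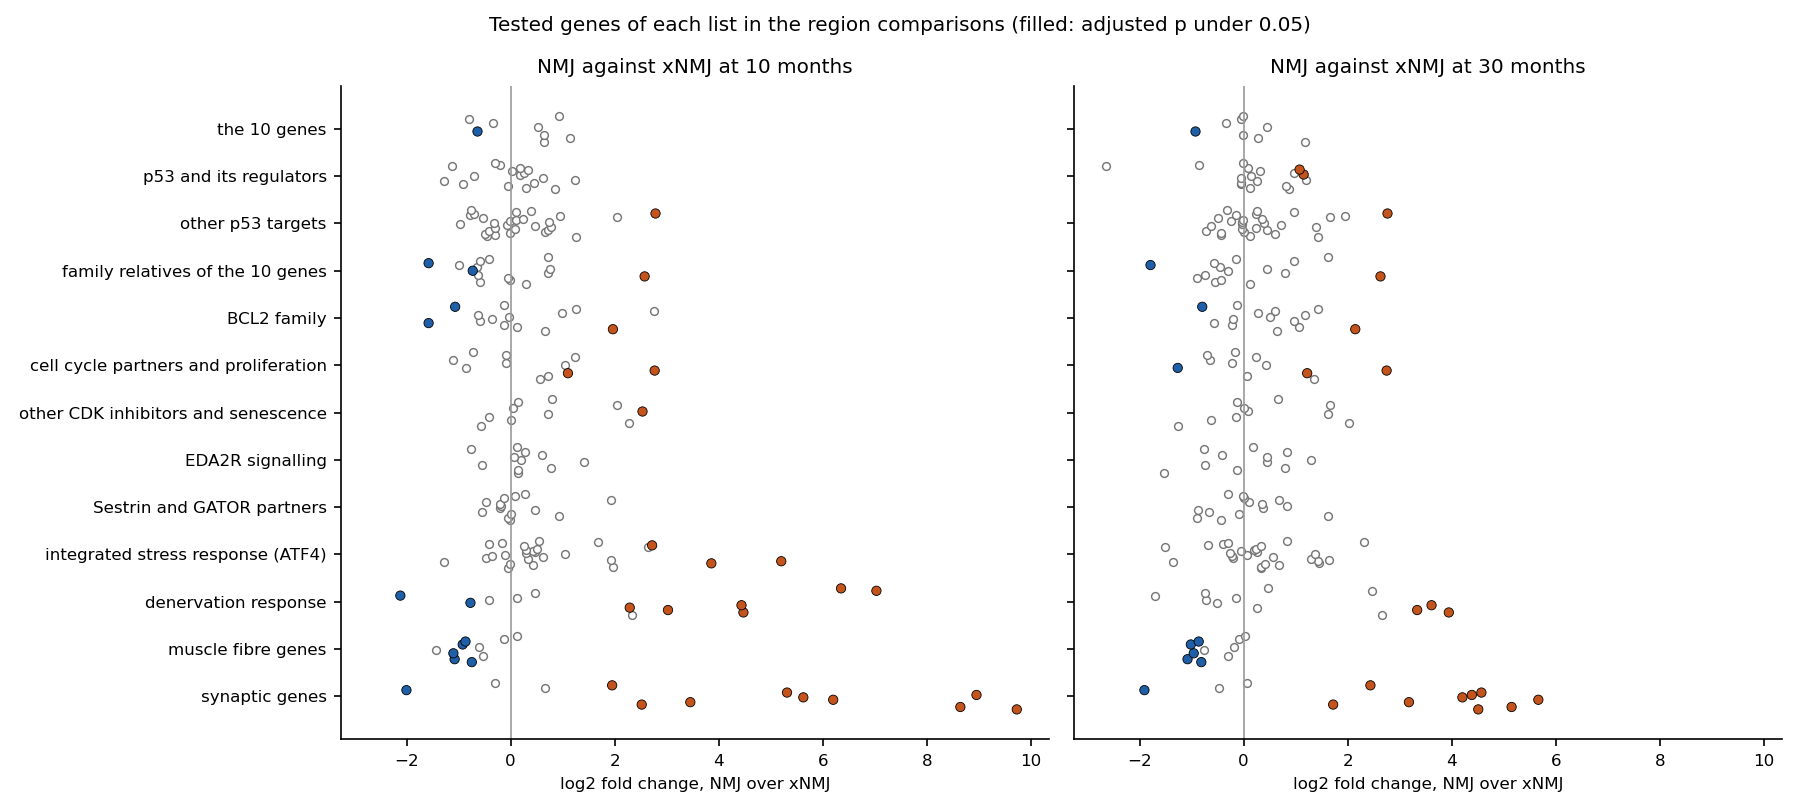
log2 fold change between NMJ and xNMJ (x axis) of each tested gene of the 10 genes and of 12 other lists (rows) at 10 and at 30 months; filled points have an adjusted p under 0.05 in edgeR, orange above 0 and blue below. Ccng1 is the filled point of the 10 genes at each age and lies at the values of the fibre genes, and the synaptic list holds the largest differences.

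The genes whose levels over the 32 libraries were most like those of Cdkn1a and Eda2r were taken from 13320 genes by Pearson's r of log2 CPM. For Cdkn1a they were Tmem176b (0.75), Zfp773 (0.75) and Dennd6b (0.74), and for Eda2r they were Cpne2 (0.74), Kcnma1 (0.73) and 3110040N11Rik (0.68). The 32 libraries share their groups and scaling, so these values are a description and carry no test.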

How the data were processed

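The 32 libraries were grouped by age and region from the labels. The authors trimmed single-end reads with cutadapt 1.9.1 and assigned them with kallisto 0.43.1 to protein-coding Ensembl transcripts of GRCm38, per the submitters' processing notes and the study's methods. The deposited counts per gene are whole numbers and were not normalized by the authors, although the methods describe fractional weights for reads on several transcripts. The deposited TPM values were scaled by the authors for transcript length and library total. Of 24952 genes, 39 names are shared by 2 identifiers, none of them among the 10 genes.

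Counts were analysed here with edgeR 4.0.16 in R 4.3.3 (TMM factors, quasi-likelihood fit of the 4 groups, at least 1 CPM in at least 8 libraries, two-sided tests, Benjamini-Hochberg adjustment over 13990 genes, threshold 0.05). SE is the log2 fold change over the square root of F. Alternatives used DESeq2 1.42.0, limma 3.58.1 on log2 TPM (pseudocount 1 or 0.1) and with voom, other size factors, no filter, the insert size, fewer groups, the replicate block and each library left out; library totals and TMM-scaled TPM were added after seeing the data.

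The 10 genes and the lists were chosen with earlier results of these data known. All 10 genes were named; of other lists Trp53, Mdm4 and Atf4, the 3 called genes with the largest change in each direction, the most abundant label check and marker genes (1 of them is not reported here) and those at 0; and the 3 genes most correlated with Cdkn1a and Eda2r. Acta1 and Chrne were chosen after their values were seen. On simulated data for 30 against 10 months in NMJ, 110 of 200 genes changed 4-fold among 13680 were recovered (55%), with 5 unchanged genes called. Figures used matplotlib 3.10.9.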

Additional observations from a re-analysis of the deposited data

Results flagged for a closer look

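In 37 sets of 8 libraries of a group, the gap of the highest or lowest library to the next was compared with the range of the set. In 6 sets a library stood apart, in each case the highest. The comparison picks about 1 set in 20 by chance only where values are normally distributed. CPM values can have a long upper tail, so the 6 sets were not weighed against that rate. Eda2r was at 46.8 CPM in 30m xNMJ replicate 3, with the next library at 15.2 CPM. Ccng1 was at 698 CPM in 10m xNMJ replicate 7, with the next at 541 CPM, and at 875 CPM in 30m xNMJ replicate 2, with the next at 637 CPM. Trp53inp1 was at 15.7 CPM in 10m xNMJ replicate 5, with the next at 7.61 CPM. Bax was at 11.1 CPM in 10m xNMJ replicate 7, with the next at 4.63 CPM, and Gdf15 at 0.759 CPM in 30m NMJ replicate 4, with the next at 0.24 CPM.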

How the results depend on the processing

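Of 355 values of single genes under settings other than leaving out a library, 298 kept direction and side of the threshold, 14 gained the call, 6 lost it and 37 changed sign. The cause was not tested. Values without an adjusted p were counted as not called. These were the values from DESeq2 with age in NMJ for all tested genes but Ccng1. The 6 losses were Ccng1 at both ages with library totals and on both scales of unscaled TPM. Genes called between regions at 10 and 30 months, 1615 and 1295 (56.3% and 54.1% higher), were 2918 and 3561 on log2(TPM + 1) (91.9% and 98.3% higher), 3014 and 3681 on log2(TPM + 0.1) (92.4% and 98.5%) and 2877 and 2767 with library totals (92.7% and 97.3%). With age in NMJ, 0 genes became 1 with DESeq2, 3 on log2(TPM + 1), 1 with voom and the replicate block and 1 on TMM-scaled TPM. In xNMJ, 6 became 84 with DESeq2, 2 with the insert size and 0 on both TPM scales, on TMM-scaled TPM, with voom and the replicate block and with only the compared groups. For the mean of regions, 0 became 48 with DESeq2 and 1 on each TPM scale, scaled or not, and for the interaction 0 became 9 with DESeq2. The count of the 8 genes called went from 1 to 2 at 10 months on log2(TPM + 0.1), with the insert size, with voom and the block and with library totals, from 1 to 2 at 30 months on both TPM scales, and from 0 to 1 (Eda2r) with DESeq2 in xNMJ and for the mean.

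Signs changed as follows. Between regions at 30 months, Mdm2 was 0.047 without the filter, 0.58 on log2(TPM + 1), 0.62 on log2(TPM + 0.1), 0.022 and 0.036 with the block in voom and edgeR and 0.64 with library totals; in the same order without voom, Phlda3 was 0.004, 0.76, 0.79, 0.058 and 0.58, and 0.16 on TMM-scaled TPM. Bax was 0.03, 1.10, 1.35, 0.71, 0.94 and 0.64, and 0.56 on TMM-scaled TPM, and Trp53inp1, unchanged in sign without the filter, 0.34, 0.87, 0.52, 0.51, 0.16 and 0.042. At 10 months Trp53inp1 was 0.047 on log2(TPM + 1) and 0.19 with library totals. With age, on log2(TPM + 1) and log2(TPM + 0.1), Ccng1 in NMJ was 0.014 and 0.014, Cdkn1a in xNMJ 0.045 and 0.004 (0.043 on TMM-scaled TPM), Bax in xNMJ -0.018 and -0.12 and the interaction of Eda2r 0.20 and 0.004. Zmat3 in xNMJ was 0.093 with voom and the block.

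Leaving out each of the 32 libraries, genes called ran from 1433 to 1708 and from 1106 to 1475 between regions, 0 to 0 with age in NMJ, 0 to 9 in xNMJ, 0 to 3 for the mean and 0 to 1 for the interaction. Ccng1 kept its call in all 32 fits at both ages (-0.68 to -0.55 and -0.98 to -0.82). Signs changed for Trp53inp1 (-0.66 to 0.22 and -0.52 to 0.29), Mdm2 (-0.15 to 0.11), Phlda3 (-0.18 to 0.16) and Bax (-0.19 to 0.80) between regions, and with age for Bax (-0.37 to 0.04 in NMJ and -0.069 to 1.14 in xNMJ), Cdkn1a (-0.46 to 0.13) and Zmat3 (-0.36 to 0.21) in xNMJ. Same-numbered libraries share only a number in the labels. Of 16 pairs, 5 had deviations with r over 0.1 (-0.02 to 0.37, with means of 0.089 at 10 months and 0.081 at 30 months). Each NMJ library was set against the 8 xNMJ libraries of its age, and 8 of 16 correlated best with their own number. Whether libraries of the same number share an animal was not tested. With the replicate block edgeR called 1829 and 1531 genes between regions. In limma-voom with the block Phlda3 between regions at 10 months passed (-1.01, adjusted p = 0.0213; 0.0691 in edgeR with the block), and with age in NMJ Trp53inp1 (1.27) was above Eda2r (0.90). Sesn2 and Gdf15 were below the filter.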

Other observations

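The genes most like the other tested genes over the 32 libraries, by Pearson's r of log2 CPM and chosen after their values were seen, were as follows. For Ccng1 they were Hfe2, which encodes hemojuvelin (0.88), Acta1 (0.87) and 3000002C10Rik (0.86), and for Mdm2 they were Lsm4 (0.74), Rexo2 (0.70) and Polr2i (0.68). For Bax they were Ifitm3, an interferon-induced membrane protein (0.77), Ccr2, a chemokine receptor of monocytes (0.72), and Sp3os (0.72). For Phlda3 they were Wnk2 (0.72), Pfkfb1 (0.63) and Snx17 (0.61), for Zmat3 Csf2ra (0.69), Ttc27 (0.69) and Gsap (0.65), and for Trp53inp1 Hoxd3os1 (0.57), Fam199x (0.57) and Rnf34 (0.56). The libraries share their groups and scaling, and these values carry no test.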
